A study of Saccharomyces cerevisiae with 4 samples.

Results

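The 10 genes described here encode components of calcineurin signalling and some of the calcium transporters of *Saccharomyces cerevisiae*. The genes are *CNA1* (YLR433C), *CMP2* (YML057W), *CNB1* (YKL190W), *CRZ1* (YNL027W), *RCN1* (YKL159C), *CCH1* (YGR217W), *MID1* (YNL291C), *PMC1* (YGL006W), *PMR1* (YGL167C) and *CMK2* (YOL016C). They were chosen by open reading frame (ORF) name and not by any measured value, though with earlier results of these data known. They are 10 of the 6172 genes in the table. Two-colour microarrays compared *mid2* mutant cells of the BY4741 background given zymolyase at 0.8 units per ml for 3 h with untreated cells of the same mutant, split from the same cultures in rich medium at 24 °C. The labels describe 2 cultures, each hybridised with the dyes both ways round, which gives 4 arrays. Treated RNA carried Cy3 on arrays 1 and 3 and Cy5 on arrays 2 and 4. Both treated and untreated cells thus lack an intact *MID2*, and cells with an intact *MID2* were not analysed here. The labels do not say how *MID2* was altered or which arrays share a culture. *MID1*, a calcium channel gene among the 10, and *MID2*, the sensor gene mutated here, are different genes.

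Calcineurin is a protein phosphatase that calcium-bound calmodulin switches on. Its catalytic subunit comes from either of the paralogs *CNA1* and *CMP2*, and its regulatory subunit from *CNB1*. Active calcineurin dephosphorylates the transcription factor Crz1, which then enters the nucleus and induces genes for ion transport, cell wall synthesis and the feedback control of calcium. Calcium enters the cell through the plasma membrane channel of Cch1 and Mid1, and the pumps Pmc1 of the vacuole and Pmr1 of the Golgi remove it from the cytosol. Zymolyase digests the glucan of the cell wall, and in yeast cell wall damage is known to engage this pathway beside the cell wall integrity kinase cascade. Much of the pathway is controlled at the protein level, which RNA ratios do not show.

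Each value is taken as the log2 ratio of the 2 channels of an array for 1 gene. It gives a difference between treated and untreated cells and no level of expression. The sources used here give neither the base of the logarithm nor the numerator. Base 2 is an assumption, on which all fold values rest. Pearson correlations across the 3299 genes measured on every array were above 0 for each pair of arrays of opposite dye orientation (0.13 to 0.39), so the arrays were taken as already turned the same way. Spearman correlations of those pairs lay between −0.08 and 0.14. Arrays of the same dye orientation were more alike, at 0.41 (arrays 1 with 3) and 0.39 (arrays 2 with 4) by Spearman. Their Pearson correlations were 0.48 and 0.42. Positive values are called likely higher in treated cells because 10 cell wall stress genes had medians of 1.65, 1.93, 2.35 and 1.93 on arrays 1 to 4. The arrays differed in completeness, with 42.2% of ORF rows blank on array 2 and 20.0% to 24.2% on the others. They also differed in centring, since the median of the 3299 genes was −0.37 on array 2 but −0.07 to −0.02 elsewhere, and in spread, which was narrowest on array 4. *MID2* was blank on all 4 arrays, which leaves the genotype unchecked. *HOG1*, read because a comment label on array 4 names a *hog1* mutant, had ratios of 0.20, 0.55, −0.15 and 0.26.

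None of the calcineurin and calcium transport genes passed the test for a change after zymolyase. Of the 10 genes, 4 had a value on all 4 arrays (*CMP2*, *RCN1*, *MID1* and *PMR1*), 5 had a value on 3 arrays, and *CCH1* had none. Tested in limma as the mean of the 2 cultures under both ways of assigning arrays to cultures, 0 of the 4 passed an adjusted p of 0.05 (1 at an unadjusted p under 0.05), against 4.15% of the 3299 genes tested (10.8% at an unadjusted p under 0.05). With the test extended to genes with a value on at least 3 arrays, 0 of 9 passed, against 1.06% of 4429 genes. Over 4 or 9 genes these shares come to fewer than 1 call, so the count by itself does not set the genes apart. The smallest mean that passed among the 3299 genes was 0.85 in size, and means smaller than that did not pass. The median of the 4 means was 0.08, against −0.14 over all genes tested.

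**Figure D1:**
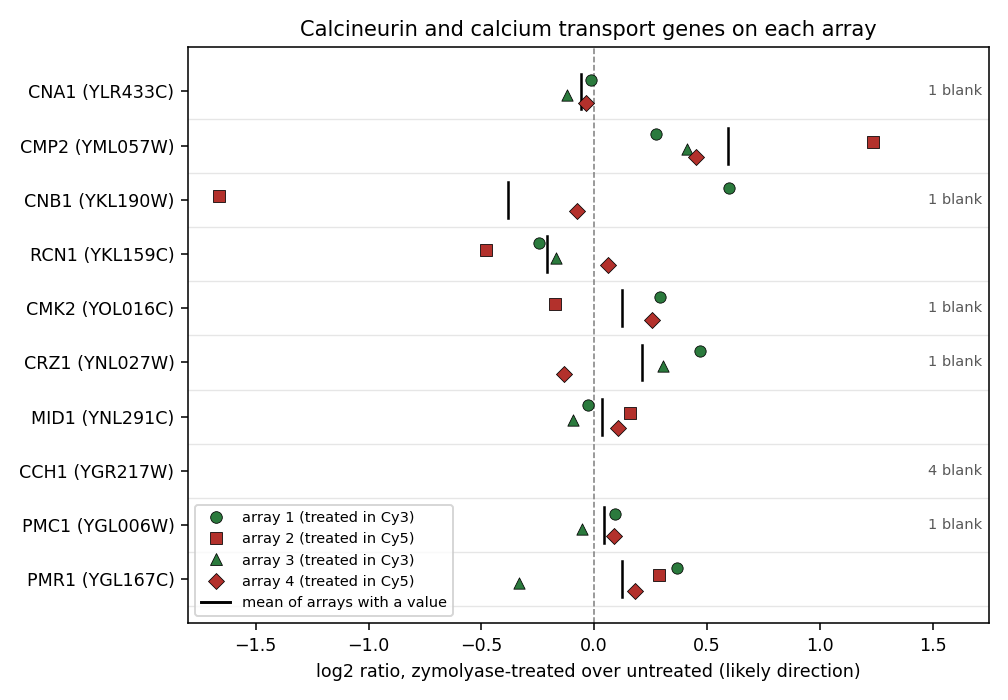
Log2 ratio of treated over untreated cells (x axis, likely direction) for each of the 10 genes (rows) on each array (symbols, coloured by the dye of the treated RNA), with the mean of the arrays that had a value as a vertical bar. Only *CMP2* lies above 0 on all 4 arrays, *CNB1* has the widest scatter (−1.66 to 0.60), and *CCH1* is blank throughout.

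*CMP2*, which encodes one of the catalytic subunits, had the highest mean of the 9 measured genes. It read 0.27, 1.23, 0.41 and 0.45 on arrays 1 to 4, a mean of 0.59 ± 0.43 (SD over 4 arrays of 2 cultures), or 1.51-fold. All 4 arrays were above 0, as for 6.15% of the 3299 genes, and array 2 was the highest. Of the genes tested, 95.5% had a lower mean. The change did not pass (limma, adjusted p = 0.348, 95% interval 0.05 to 1.13, which is 1.04-fold to 2.19-fold). The outcome turned on which arrays share a culture: it passed if arrays 1 with 4 and 2 with 3 are the cultures (adjusted p = 0.0467), and not if arrays 1 with 2 and 3 with 4 are (adjusted p = 0.348). Across genes, Pearson correlations were 0.39 for each of arrays 1 with 2 and 3 with 4, against 0.14 for arrays 1 with 4 and 0.13 for arrays 2 with 3, which by itself does not show which arrays share a culture. Without array 2 the average of the culture means was 0.37 (adjusted p = 0.693).

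*CNA1*, the paralog of *CMP2*, did not pass, with −0.02, −0.12 and −0.04 on arrays 1, 3 and 4 and a blank on array 2. Its values were all slightly below 0, a pattern of 1 sign seen in 22.5% of the 1130 genes with exactly 3 values. The mean was −0.06 ± 0.06 (SD, 3 arrays), and the fitted interval allowed changes from −0.59 to 0.50 (limma, adjusted p = 0.984). On the 3 arrays that measured both catalytic subunit genes, the ratio of *CMP2* exceeded that of *CNA1* by 0.29, 0.53 and 0.49. The difference had the same direction on each of these arrays, a mean of 0.44 ± 0.13 (SD, 3 arrays), and it was not tested because at least 2 of the 3 arrays share a culture. The array on which *CMP2* was highest is the one that lacks *CNA1*.

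*CNB1*, the single gene for the regulatory subunit, was the least reproducible of the 9 measured genes. It read 0.60 on array 1, −1.66 on array 2 and −0.08 on array 4, and was blank on array 3. Arrays 1 and 2 thus had opposite signs: 88.7% of genes with a value read lower on array 1, but only 1.43% on array 2. The mean of −0.38 ± 1.16 (SD, 3 arrays) gives no direction, and the interval of the fit on culture means ran from −1.81 to 0.41 (limma, adjusted p = 0.873).

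Next in order are 2 genes whose products act on the pathway and are themselves known to be induced through calcineurin and Crz1. *RCN1*, which encodes the calcipressin that binds and modulates calcineurin, read −0.24, −0.48, −0.17 and 0.06 on arrays 1 to 4. Its mean was −0.21 ± 0.22 (SD over 4 arrays), with 3 arrays below 0, and it did not pass (limma, adjusted p = 0.887, interval −0.75 to 0.33). Relative to the median of each array its mean was −0.08, and 38.1% of genes tested had a lower mean. *CMK2*, which encodes a calmodulin-dependent protein kinase, read 0.29, −0.17 and 0.26 on arrays 1, 2 and 4, and was blank on array 3. Set against the medians of those arrays it was 0.31, 0.20 and 0.33 above. The negative reading was on array 2, whose values were low as a whole, and the reason for that reading was not tested. Its mean of 0.12 ± 0.26 (SD, 3 arrays) did not pass (limma, adjusted p = 0.930, interval −0.43 to 0.70).

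*CRZ1*, the gene of the transcription factor itself, read 0.47 and 0.30 on arrays 1 and 3, where treated RNA carried Cy3, and −0.13 on array 4, where it carried Cy5. Array 2 was blank, so the other reading in Cy5 is missing and the dye orientation cannot be told apart from the difference between these arrays. The mean was 0.21 ± 0.31 (SD, 3 arrays), and it did not pass (limma, adjusted p = 0.882, interval −0.27 to 0.82).

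For the plasma membrane channel, *MID1* was the one gene measured. Its ratios of −0.03, 0.16, −0.09 and 0.11 on arrays 1 to 4 lay on both sides of 0, negative where treated RNA carried Cy3 and positive where it carried Cy5. Their mean was 0.04 ± 0.12 (SD over 4 arrays), the smallest SD of the 4 fully measured genes (limma, adjusted p = 0.975, interval −0.51 to 0.58). In fold terms this interval spans 0.70 to 1.49, but limma pools the spread over genes. Its width therefore says little of the scatter of *MID1* itself. *CCH1*, the pore subunit gene, had no value on any array, so the channel was measured through 1 of its subunit genes only.

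Neither pump gene passed. *PMC1*, the calcium pump gene of the vacuole, read 0.09, −0.05 and 0.09 on arrays 1, 3 and 4, a mean of 0.04 ± 0.08 (SD, 3 arrays; limma, adjusted p = 0.982, interval −0.49 to 0.60). *PMR1*, the calcium and manganese pump gene of the Golgi, read 0.36, 0.29, −0.33 and 0.18 on arrays 1 to 4. Array 3 was the only one below 0, where 33.3% of genes read lower, against 76.2% to 85.6% on the other arrays. The mean of *PMR1* was 0.12 ± 0.31 (SD over 4 arrays) and did not pass (limma, adjusted p = 0.920, interval −0.42 to 0.67). The average of its culture means was 0.06 without array 2 and 0.27 without array 3.

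**Figure D2:**
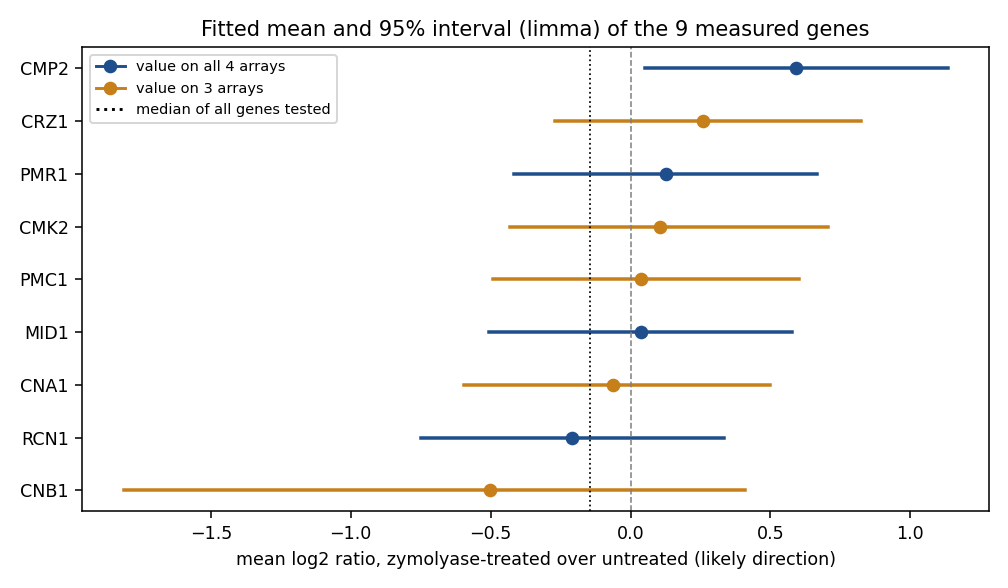
Fitted mean log2 ratio (points) and 95% interval (lines, limma, spanning the intervals of both culture assignments) of the 9 measured genes, ordered by mean. The dotted line is the median of all genes tested. The interval of *CMP2* (0.05 to 1.13) is the one that does not include 0, and that of *CNB1* (−1.81 to 0.41) is the widest.

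In order of the fitted means, *CMP2* (0.59) was followed by *CRZ1* (0.26), *PMR1* (0.12), *CMK2* (0.10), *PMC1* and *MID1* (0.04 each), *CNA1* (−0.06), *RCN1* (−0.21) and *CNB1* (−0.50). The intervals of neighbours in this order overlapped in each case, which is no test of a difference, and differences between these genes were not tested. Of the 3299 genes, 3291 had the same standard error of 0.28, since limma pools the spread over genes, so the error of a single gene says little of the scatter of its own arrays. The standard error of *CNB1*, from the fit over genes with at least 3 values, was 0.44. Relative to the array medians the 4 fully measured genes had means of 0.72 (*CMP2*), 0.25 (*PMR1*), 0.16 (*MID1*) and −0.08 (*RCN1*), and their order was unchanged.

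**Figure D3:**
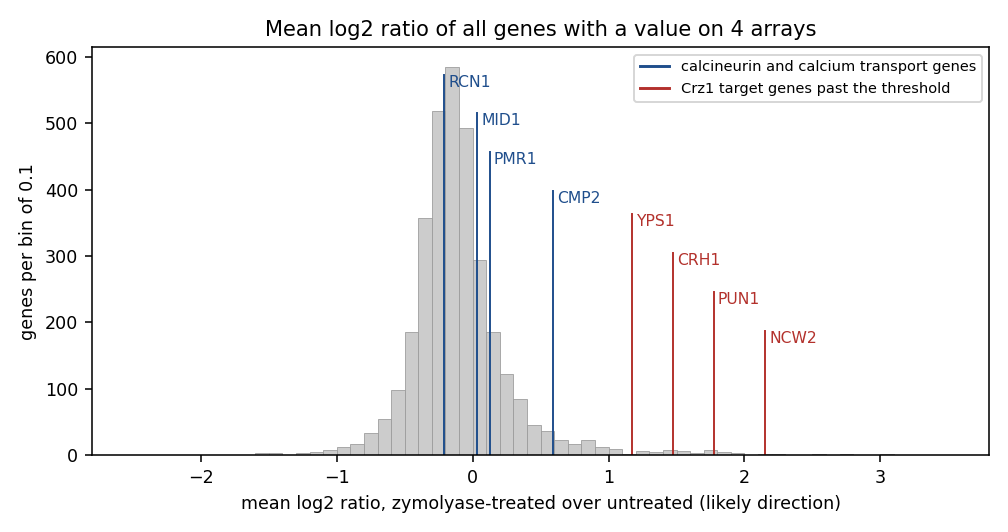
Mean log2 ratio over 4 arrays (x axis) of the 3299 genes measured on every array, as the number of genes per bin of 0.1 (y axis, grey), with the 4 fully measured calcineurin and calcium transport genes in blue and the 4 Crz1 target genes past the threshold in red; line heights carry no value. *CMP2* at 0.59 lies in the upper flank, the other 3 blue lines lie between −0.21 and 0.12, and the red lines lie between 1.17 and 2.15.

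The 4 arrays divide into pairs in 3 ways, by dye orientation and by the 2 possible assignments of arrays to cultures. For *CMP2* the mean of the arrays with treated RNA in Cy5 exceeded that of the arrays with it in Cy3 by 0.50, arrays 1 and 2 exceeded arrays 3 and 4 by 0.32, and arrays 1 and 4 were below arrays 2 and 3 (−0.46). The typical size of these differences over all genes was 0.37, 0.32 and 0.23. In each of the 3 divisions the pair that held array 2 was the higher for *CMP2*. For *RCN1*, *MID1* and *PMR1* the dye difference was −0.0037, 0.19 and 0.22, below the typical size. The largest of their other differences was 0.40, for *PMR1* between arrays 1 and 2 and arrays 3 and 4.

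Genes with the profile most like that of *CMP2* were found by the Euclidean distance over the 4 log2 ratios. The nearest was *PDC1*, which encodes the main pyruvate decarboxylase, at a distance of 0.06, with 0.23, 1.22, 0.37 and 0.45 on arrays 1 to 4. *TIR2*, a cell wall mannoprotein gene, lay at 0.23 and *ARO9*, an aromatic aminotransferase gene, at 0.28. All 3 were highest on array 2, as *CMP2* was, and none of them passed under both culture assignments (limma, adjusted p of 0.338 to 0.485). Both outcomes follow from choosing the genes by closeness to *CMP2* on these same values. Like *CMP2*, *TIR2* passed with arrays 1 with 4 and 2 with 3 as the only cultures (limma, adjusted p = 0.0413).

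The flanking genes on the chromosome were also read, a choice made after the data were seen. Of the 20 neighbours, 12 had a value on all 4 arrays and 0 passed (limma), against 4.15% of all genes tested, which is fewer than 1 call over 12 genes. Both neighbours of *CMP2* were among the 12.

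Among 13 other genes known as targets of calcineurin and Crz1, 8 had a value on all 4 arrays and 4 of these rose, against 2.76% of all genes tested that rose. None fell, and their median was 0.99, against −0.14 over all genes. The list was drawn up with earlier results of these data known, so these shares describe it and do not test it. With values on at least 3 arrays, 3 of 11 passed, against 1.06% of the 4429 genes, and their median was 0.46. In that fit *YPS1* missed the threshold (adjusted p = 0.0646). The list leaves out the 4 members known as targets, *RCN1*, *CMK2*, *PMC1* and *PMR1*, none of which passed. Counting them too, a choice made after the data were seen, 4 of 10 fully measured targets passed with a median of 0.57, and 3 of 15 with at least 3 values passed with a median of 0.14. *NCW2*, a cell wall protein gene, read 1.46, 2.31, 2.65 and 2.19 on arrays 1 to 4 (mean 2.15 ± 0.50, SD; limma, adjusted p = 5.14e-06). *PUN1*, which encodes a plasma membrane protein, read 1.59, 0.56, 3.41 and 1.53 (mean 1.77 ± 1.19; limma, adjusted p = 1.31e-05). *CRH1*, which encodes a transglycosylase that links chitin to glucan, read 1.46, 2.07, 1.13 and 1.23 (mean 1.47 ± 0.42; limma, adjusted p = 4.15e-05). *YPS1*, a cell surface aspartyl protease gene, read 1.13, 2.14, 0.54 and 0.88 (mean 1.17 ± 0.69; limma, adjusted p = 0.000963). All 4 were above 0.5 on every array.

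These 4 genes encode cell wall or cell surface proteins. *NCW2* and *CRH1*, with *GSC2*, also belong to the 10 cell wall stress genes that set the direction of the ratios, so their rise is no independent evidence of it. *CRH1*, *NCW2* and *YPS1* are also known to be induced through the cell wall integrity kinase Slt2. The count of 4 targets fell to 0 without array 4 and to 0 with arrays scaled to one spread, and *YPS1* also missed the threshold without array 2 (0.85, adjusted p = 0.162). The mean of *PUN1* was 1.18 without array 3 (adjusted p = 0.126).

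The targets that did not pass included those with functions in ion transport. *ENA1*, the sodium pump gene, read 0.38, −0.26, 0.33 and 0.10, a mean of 0.14 ± 0.29 (SD over 4 arrays; limma, adjusted p = 0.907). *PHO89*, the sodium-coupled phosphate transporter gene, read −0.28, −1.20, −0.78 and −0.16, below 0 on each array (mean −0.60 ± 0.47; limma, adjusted p = 0.327), and was named after its values were seen, as were *ENA1* and *CHS1*. *GSC2*, also called *FKS2*, the glucan synthase gene from which the calcineurin-dependent response element was described, had arrays in strong disagreement. It read 1.31 and 1.57 on arrays 1 and 3, where treated RNA carried Cy3, and −1.57 and 0.07 on arrays 2 and 4, where it carried Cy5 (mean 0.34 ± 1.44; limma, adjusted p = 0.800). *CHS1*, a chitin synthase gene, read 0.88, 0.37, 1.49 and 0.47, above 0 on each array, and missed the threshold (mean 0.80 ± 0.51, limma, adjusted p = 0.0728). The outcome for *CHS1* depended on the processing. It passed with arrays 1 with 4 and 2 with 3 as the only cultures (limma, adjusted p = 0.00617), with centring (0.0222) and with a dye term (0.0386). It did not pass in the other alternatives.

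Of 18 other genes of calcium and calmodulin signalling, 7 had a value on all 4 arrays and 3 were blank throughout. None of the 7 passed (0 at an unadjusted limma p under 0.05), against 4.15% of all genes tested (10.8% unadjusted). With values on at least 3 arrays, 0 of 11 passed, against 1.06%. Over so few genes these shares come to fewer than 1 call, so the counts do not set the list apart. *RCN2*, a relative of *RCN1*, had the highest mean, with 0.38, 0.19, 1.16 and 0.40 on arrays 1 to 4 (mean 0.54 ± 0.43; limma, adjusted p = 0.472), and was above 0 on each array. Without array 3 the average of its culture means was 0.32, below 0.59 for *VCX1*, and without array 1 it was 0.52, against 0.54 for *VCX1*. *RCN1* read below *RCN2* on every array. *VCX1*, the vacuolar exchanger of calcium for protons, read 0.07, 0.97, −0.12 and 0.55 (mean 0.37 ± 0.49; limma, adjusted p = 0.774), and 0.12 without array 2. *GDT1*, a Golgi calcium and manganese transporter gene, was below 0 on each array (−0.38 to −0.15), and *CSG2*, a gene of sphingolipid synthesis whose loss makes cells calcium-sensitive, ranged from −0.97 to 0.38. The remaining fully measured genes included *CMD1*, the calmodulin gene, at 0.05 ± 0.41 (SD over 4 arrays), named after its values were seen.

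**Figure D4:**
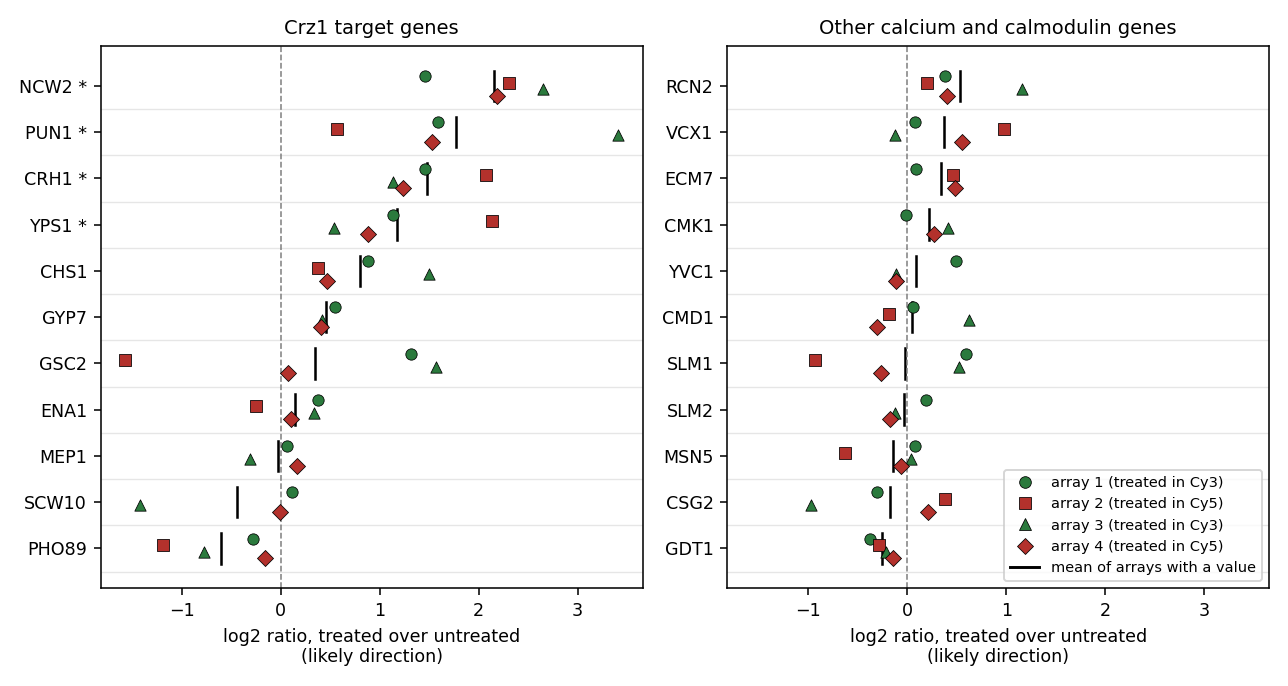
Log2 ratio of treated over untreated cells (x axis, likely direction) on each array (symbols, coloured by the dye of the treated RNA) for the Crz1 target genes (left) and the other calcium and calmodulin genes (right) with a value on at least 3 arrays, with the mean as a vertical bar; *YVC1* is the mean of its rows in the table. Asterisks mark the 4 targets past the threshold, *NCW2*, *PUN1*, *CRH1* and *YPS1*, whose means lie between 1.17 and 2.15, and none of the genes on the right carries one.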

How the data were processed

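Per the labels, total RNA was labelled with Cy3 or Cy5 and hybridised to 4 two-colour arrays. The deposited table holds 1 log2 ratio per ORF and array; how the ratios were normalized, and their base and numerator, is not given in the sources used here. Scanner intensities are not analysed here. Of 6209 rows 2 controls were left out, and rows of 1 gene, matched through RefSeq R64 names, were averaged. The table names no genome build, so genes are given without coordinates.

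limma 3.58.1 in R 4.3.3 was fitted across all 3299 genes with a value on all 4 arrays. The 2 arrays of a culture were averaged, under each possible assignment, and the 2 culture means were tested against 0 (1 residual degree of freedom). A call needed a Benjamini-Hochberg adjusted p under 0.05 under both, and the larger p was kept. The interval given runs from the lowest lower limit to the highest upper limit of both fits. Genes on 3 arrays were tested in a second fit over 4429 genes, where an absent array is dropped from its culture's mean. A dye effect need not cancel in such a culture. The procedure was tested on simulated data without blanks or a dye effect. That test does not cover the second fit or dye differences between arrays. The p-values set each mean against a spread between culture means that limma largely pooled over genes. They say little of the spread of a single gene between these 2 cultures, and precision is limited by the number of cultures and arrays.

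The genes and lists were chosen with earlier results of these data known. Named were the 10 genes, targets and calcium genes past the threshold or among the 4 largest means of their list, the cell wall stress genes that set the direction where they are targets, and, as a check of labels, *MID2* and *HOG1*. Alternatives were the culture assignment, centring, scaling, missing values, the dye term and single arrays. Promoter and protein sequences were not used here.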

Additional observations from a re-analysis of the deposited data

How the results depend on the processing

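Alternatives covered the culture assignment, centring, scaling, missing values, arrays as separate values and the omission of single arrays. The count of calcineurin and calcium transport genes past the threshold was 0 in all of them except with arrays 1 with 4 and 2 with 3 as the only cultures, where it was 1 (*CMP2*). The 18 other calcium genes gave 0 throughout. Of the Crz1 targets, 4 passed, against 0 with arrays centred and scaled to one spread, 2 with 4 arrays as separate values and no dye term (5 with one), and 0 to 4 when single arrays were left out. The count of targets was 5 with arrays only centred, and 5 with arrays 1 with 4 and 2 with 3 as the only cultures. With values on at least 3 arrays 3 passed, and *YPS1* did not (adjusted p = 0.0646). The count was also 4 with *RCN1*, *CMK2*, *PMC1* and *PMR1* counted as targets, a choice made after seeing the data. The mean of *CMP2* ranged from 0.37 to 0.73, with an adjusted p of 0.0467 to 0.693. When single arrays were left out, the sign turned in 4 of the named genes with a value on every array, none of which had passed. These were *MID1* (−0.020 to 0.092), *CSG2* (−0.43 to 0.14), *GSC2* (−0.24 to 1.10) and *CMD1* (−0.17 to 0.21). *CNA1*, *CNB1*, *CRZ1*, *PMC1* and *CMK2* were refitted only without the array on which they were blank. None of their own readings was left out, so their dependence on single arrays was not tested. *MID1* was negative without array 2 or 4, *CSG2* positive without array 3, and *GSC2* and *CMD1* negative without array 1 or 3. The cause was not tested. Over all genes, calls numbered 137, and 2 with scaling, 47 with values on at least 3 arrays, 125 with 4 arrays as separate values and a dye term, 65 with the same and no dye term, 306 with arrays 1 with 4 as the only assignment, and 5 to 83 without single arrays (5 without array 4). Centring moved the median of all genes by 0.13. Signal over background is unknown, so blanks and low readings cannot be told apart by brightness.

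No array stood apart by Dixon's test in any of the 21 named genes with 4 values. The largest statistics were 0.819 for *ARO9* and 0.816 for *CMP2*, both for array 2 and both just short of the critical value. With 4 values per gene the test can miss a deviating array. It therefore does not show that array 2 left the mean of *CMP2* unaffected.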
